A study of Mus musculus with 18 samples.

Results

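Untreated bone marrow-derived macrophages (BMMs) that lack GILZ (GILZ KO) were compared with untreated BMMs that overexpress it (GILZ TG). The members are the 3 GILZ KO and the 3 GILZ TG libraries that the labels give as untreated, 6 of the 18 libraries in all. The remaining 12 are the WT libraries and those given bacterial lipopolysaccharide (LPS) at 100 ng/ml for 4 h. Poly(A) RNA was sequenced, and the values are TPM, which are scaled by transcript length and library total, and estimated read counts. Both groups came from adult female C57BL/6J mice, and both carried Cre recombinase in the Lyz2 locus, which is active in the myeloid lineage. In GILZ KO, Cre removed the loxP-flanked exon 6 of Tsc22d3, the gene that encodes GILZ. In GILZ TG, Cre removed a stop cassette in front of a Gilz-1 cDNA that had been inserted into the ROSA26 locus, so that the cDNA was expressed. The cells were bone marrow cells differentiated with M-CSF, with no cell sort described. WT cells, described as coming from Lyz2-Cre mice with neither of the other alleles, are given for reference only. Whether the groups carry 1 or 2 copies of Cre is not given in the sources used here. The groups differ at both loci, so a difference between them can come from the loss of GILZ, from its excess or from both.

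GILZ, the glucocorticoid-induced leucine zipper, is a small protein of the TSC22 family. Its gene is switched on by the glucocorticoid receptor, and the protein binds and restrains transcription factors such as NF-kB and AP-1. In macrophages it is known as a mediator of anti-inflammatory glucocorticoid actions.

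The targeted gene followed the labels. Tsc22d3 (chrX:140539528-140600659, minus strand, GRCm38) was at 156, 159.8 and 152 TPM in GILZ TG and 1.89, 2.81 and 2.31 TPM in GILZ KO, and at 15.8, 14.9 and 18.8 TPM in WT. All 3 GILZ TG libraries were far above and all 3 GILZ KO libraries below WT, and the groups differed 41.4-fold (log2 fold change -5.37 ± 0.096, adjusted p = 4.07e-08 in edgeR's quasi-likelihood test with Benjamini-Hochberg adjustment over all genes, which holds for every adjusted p here unless another tool is named). The error of a log2 fold change is its standard error throughout, and a positive value means higher in GILZ KO. The value sums reads over all exons, also those outside exon 6. Gt(ROSA)26Sor (chr6:113067428-113077333), the noncoding RNA of the ROSA26 locus, which is annotated as antisense, was at 9.72, 11.1 and 11.0 TPM in GILZ KO and 2.06, 1.07 and 0.77 TPM in GILZ TG, and it was 13.7-fold higher in GILZ KO (log2 fold change 3.78 ± 0.32, adjusted p = 0.00377). Lyz2 was at 28.2, 45.8 and 26.7 TPM in GILZ KO and 17.2, 28.7 and 53.1 TPM in GILZ TG, against 11048, 12070.2 and 15401 TPM in WT, so the gene that holds Cre was low in every library of both groups and they overlapped. WT stood apart in Lyz2, so in any comparison with WT the GILZ alleles and the dose of Cre cannot be told apart. Within 1 Mb of Tsc22d3, 3 of 11 genes tested passed, against 531 of all 12306 (4.31%). They were Tsc22d3 itself, Col4a5 (log2 fold change 0.59) and Tbc1d8b (0.27). Apart from Tsc22d3, all genes tested in this window had a positive log2 fold change, from 0.08 to 0.74. With the offset for transcript length described for the length trend, Col4a5 and Tbc1d8b did not pass (adjusted p = 0.0854 and 0.219). Within 1 Mb of ROSA26, 2 of 24 passed, namely Gt(ROSA)26Sor and Fancd2 (0.37), and 11 of the 24 were positive. The ROSA26 neighbours Thumpd3 and Setd5 had log2 fold changes of -0.11 and 0.20 and did not pass.

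The 6 libraries held 20501046 to 28184535 reads on genes. Their log expression correlated with 0.991 to 0.992 within GILZ KO, 0.980 to 0.992 within GILZ TG and 0.977 to 0.987 between the groups. Replicates 1 and 2 of GILZ TG stood apart in markers of other cells. The summed level of 20 stromal fibroblast markers, such as collagens, was 237 and 273 TPM in them, against 23.1 TPM in GILZ TG replicate 3 and 11.8 to 30.4 TPM in GILZ KO. Markers of smooth muscle and pericytes summed to 87.0 and 104.6 TPM, against 11.2 and 7.35 to 16.3 TPM, and those of the neutrophil lineage to 242 and 581 TPM, against 105.0 and 58.6 to 96.9 TPM. None of the markers of these 3 lists was at 0 in all 6 libraries. For B cells and plasma cells the sums were 103 and 187 TPM, against 39.6 and 31.9 to 35.2 TPM, and 2 of the 14 markers with a value were at 0 throughout. None of the 16 stromal, 4 smooth muscle and 9 neutrophil genes tested passed in edgeR. However, 16, 4 and 8 of them had an unadjusted p under 0.05, against 3127 of all 12306 genes tested. All 16 stromal genes had a negative log2 fold change with a median of -2.88. The part of these cells in the differences given here was not tested beyond the fits without these libraries. Macrophage markers (21 genes, among them Csf1r, Adgre1 and Cd68) were all expressed and summed to 9323 to 9656 TPM in GILZ KO and 10139 to 11088 TPM in GILZ TG. As in any bulk sample, fewer cells of a type and less RNA per cell cannot be told apart. Markers of T and NK cells, erythroid cells and mast cells summed to at most 2.57 TPM in each library.

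**Figure D1:**
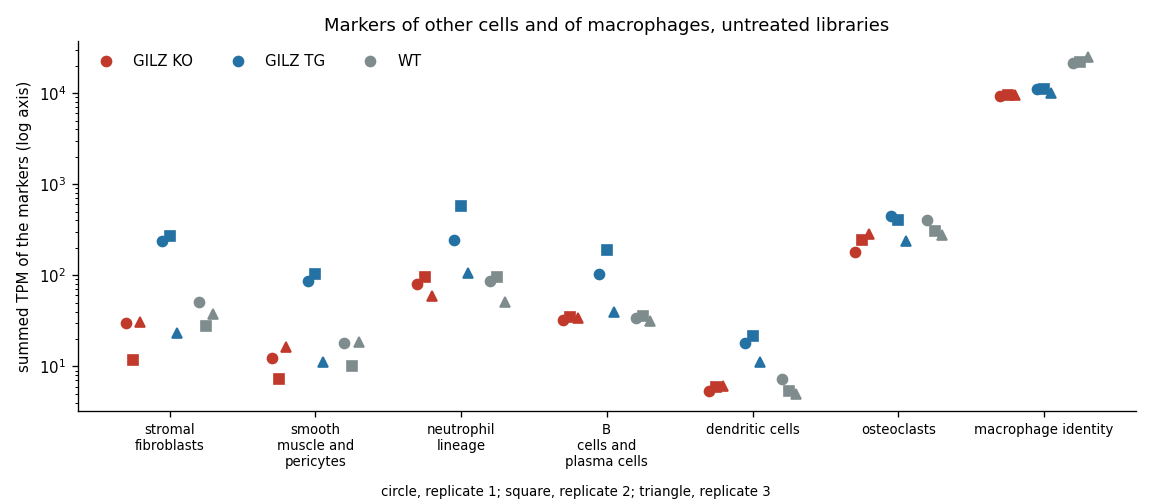
Summed TPM of marker genes in each untreated library on a log axis, by cell type, with colours for genotype and symbols for the replicate. In GILZ TG replicates 1 and 2 the stromal sum was 237 and 273 TPM, while GILZ TG replicate 3 was at 23.1 TPM, within the range of GILZ KO.

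Of 12306 genes tested, 531 (4.31%) differed between GILZ KO and GILZ TG at an adjusted p under 0.05. This share is the background for the counts of called genes given for each list of genes. The 349 genes (2.84%) higher in GILZ KO had a median difference of 1.32-fold, and 26 of them were over 2-fold. For the 182 genes (1.48%) higher in GILZ TG the median was 1.39-fold, and 28 were over 2-fold. The median log2 fold change of all genes was -0.004. The TPM of the groups did not overlap in 511 of the 531 genes, and this was so for 29% of all genes tested. Genes named for their fold change or p-value had to be without overlap, so in them it is a condition and no further support. The number of calls depended on which library was left out: it fell to 21 without GILZ KO replicate 1, 39 without GILZ KO replicate 2, 54 without GILZ KO replicate 3 and 61 without GILZ TG replicate 2. It was 552 without GILZ TG replicate 1 and rose to 2171 without GILZ TG replicate 3. No call that was shared with one of these fits changed its direction. Each of these fits has 2 libraries in 1 group and thus less power, which was not separated from the part of the library left out. With GILZ TG represented by replicate 3 alone, an alternative chosen after the data were seen, 1321 genes were called and 363 of them were among the 531. In that fit the lone library is assumed to vary like those of GILZ KO.

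**Figure D2:**
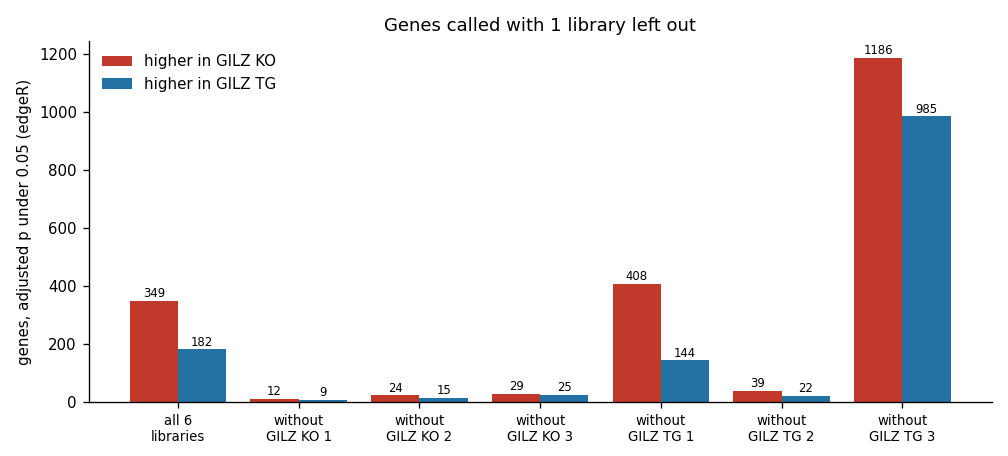
Number of genes with an adjusted p under 0.05 (edgeR) that were higher in GILZ KO or in GILZ TG, with all 6 libraries and with each library left out. The counts are 349 and 182 with all libraries, 12 and 9 without GILZ KO replicate 1, and 1186 and 985 without GILZ TG replicate 3.

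In total, 18 genes passed with all 6 libraries and with any 1 of them left out. The 7 that were higher in GILZ TG were Tsc22d3, Axl, Clec7a, Mmp12, Dmwd, Bcl2a1b and Parvg. The 11 that were higher in GILZ KO were Gt(ROSA)26Sor, Colec12, Ifi209, Akap2, Il16, Bst1, Myo7a, Mki67, Svil, Eng and Itga4. Dmwd, Il16, Myo7a and Svil are outside the rule by which genes are named and were chosen after their values were seen. Any other gene that passed lost its call without at least 1 library, and beside those described the highest adjusted p among the 6 fits with 1 library left out is given as the leave-one-out adjusted p.

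Axl, Trem2 and the C1q chains, which take part in the uptake of dead cells, were higher in GILZ TG. Axl (chr7:25757273-25788705), a receptor tyrosine kinase of the TAM family that recognizes dead cells through its ligand Gas6, was at 39.02, 44.4 and 40.6 TPM in GILZ TG and 11.4, 9.80 and 13.9 TPM in GILZ KO. Every GILZ TG library was far above every GILZ KO library, and the difference was 3.89-fold (log2 fold change -1.96 ± 0.12, adjusted p = 0.000496). WT was at 16.1, 16.4 and 12.4 TPM, close to GILZ KO. With GILZ TG represented by replicate 3 alone, the log2 fold change of Axl was -1.89.

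C1qa, C1qb and C1qc, the chains of complement C1q, which binds dying cells, also passed. C1qa was at 203, 259 and 113 TPM in GILZ TG and 63.3, 78.2 and 78.3 TPM in GILZ KO (2.68-fold, log2 fold change -1.42 ± 0.26, adjusted p = 0.0255). The groups did not overlap, but GILZ TG replicate 3 was far below the other two, and with this library alone for GILZ TG the log2 fold change was -0.68. C1qb and C1qc differed 1.64-fold and 1.60-fold with an adjusted p of 0.0377 and 0.0365. Trem2, a lipid-sensing receptor of macrophages, was at 868, 883 and 835 TPM in GILZ TG and 691, 683 and 711 TPM in GILZ KO (1.24-fold, adjusted p = 0.016), with no overlap and little spread within the groups. The leave-one-out adjusted p of these 4 genes was 0.0962 for Trem2 and 0.148 to 0.176 for the C1q chains. Of the 26 genes tested for TAM receptors and dead-cell uptake, 6 passed (23.1%, against 4.31% of all genes). Of these, 5 were higher in GILZ TG and 1, the engulfment gene Dock1 (named after its values were seen), in GILZ KO. The median log2 fold change of the list was -0.14. With GILZ TG as replicate 3 alone this median was 0.016, with 4 genes called higher in GILZ TG and 6 in GILZ KO, and with transcript length taken out by the offset described for the length trend 2 genes were higher in GILZ TG and 0 in GILZ KO.

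The protease Mmp12 (chr9:7344381-7369499), the macrophage elastase, was at 1175, 1332 and 1089 TPM in GILZ TG and 522, 461 and 509.6 TPM in GILZ KO. It was 2.48-fold higher in GILZ TG (log2 fold change -1.31 ± 0.079, adjusted p = 0.000496), and WT, with 573, 496 and 501 TPM, was at the level of GILZ KO. Mmp13, a collagenase, was 1.33-fold higher in GILZ TG (adjusted p = 0.0367, leave-one-out adjusted p = 0.15). Mmp27 was 1.76-fold higher in GILZ KO, as were Adam10 with 1.24-fold and Adam17 with 1.21-fold, the membrane proteases that shed surface proteins. Their adjusted p was between 0.0257 and 0.0312 and the leave-one-out adjusted p between 0.122 and 0.137. Of the 16 genes tested for matrix metalloproteinases and their inhibitors, 5 passed (31.25%, against 4.31% of all genes), 3 higher in GILZ KO and 2 in GILZ TG. With transcript length taken out Adam10 and Adam17 did not pass. The median log2 fold change was -0.29, and 0.13 with GILZ TG as replicate 3 alone.

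Among surface receptors, Clec7a, which encodes the beta-glucan receptor Dectin-1 and is listed as a polymorphic pseudogene in the annotation used, was at 67.5, 69.3 and 46.9 TPM in GILZ TG and 30.0, 22.9 and 21.5 TPM in GILZ KO. This was 2.65-fold higher in GILZ TG (log2 fold change -1.41 ± 0.15, adjusted p = 0.00524), and GILZ TG replicate 3 was the lowest of its group but still above all GILZ KO libraries. Clec12a, an inhibitory receptor, was 1.24-fold higher in GILZ TG (adjusted p = 0.0186, leave-one-out adjusted p = 0.111). The other 11 of 13 C-type lectin receptors tested did not pass, so 15.4% of this list passed, against 4.31% of all genes. Itgax, the CD11c integrin chain found on dendritic cells and on some macrophages, was at 17.4, 20.6 and 10.4 TPM in GILZ TG and 4.92, 5.25 and 5.77 TPM in GILZ KO (3.11-fold, log2 fold change -1.64 ± 0.22, adjusted p = 0.0109, leave-one-out adjusted p = 0.0895). Its log2 fold change was -1.02 with GILZ TG as replicate 3 alone, and the summed markers of dendritic cells, to which Itgax belongs, were 17.9, 21.4 and 11.2 TPM in GILZ TG and 5.42 to 6.06 TPM in GILZ KO. Of those 9 markers, 8 were under 1 TPM in every library.

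Bcl2a1b (chr9:89199209-89207827), an antiapoptotic member of the BCL2 family, was at 182, 189.8 and 168 TPM in GILZ TG and 94.3, 98.2 and 84.6 TPM in GILZ KO. It was 1.99-fold higher in GILZ TG (log2 fold change -0.99 ± 0.073, adjusted p = 0.00135), and WT lay between the groups at 129, 123 and 124 TPM. The gene has near-identical copies with which reads can be shared, so that the share of each copy is uncertain. Tnfrsf10b, a death receptor for TRAIL, was 1.63-fold higher in GILZ KO at 9.79, 10.6 and 11.1 TPM in GILZ KO and 5.86, 6.41 and 6.60 TPM in GILZ TG (log2 fold change 0.70 ± 0.089, adjusted p = 0.00942, leave-one-out adjusted p = 0.062). The remaining 36 of 38 genes tested for apoptosis and necroptosis did not pass, so 5.26% of this list passed, near the 4.31% of all genes. Parvg, an adaptor between integrins and actin in blood cells, was 1.53-fold higher in GILZ TG at 65.1, 57.3 and 60.8 TPM in GILZ TG and 43.6, 42.6 and 38.97 TPM in GILZ KO (log2 fold change -0.61 ± 0.055, adjusted p = 0.004). In contrast, Itga4, the alpha chain of the integrin VLA-4, was 1.38-fold higher in GILZ KO at 28.7, 28.2 and 27.4 TPM in GILZ KO and 19.4, 18.7 and 17.99 TPM in GILZ TG (log2 fold change 0.46 ± 0.047, adjusted p = 0.00521). With the offset for transcript length described for the length trend, its log2 fold change was 0.24 (adjusted p = 0.0824). Both genes had a narrow spread within groups and no overlap.

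Among the other genes with the largest differences, Dmpk, the myotonic dystrophy protein kinase, was at 35.01, 34.2 and 26.3 TPM in GILZ TG and 10.6, 8.71 and 14.7 TPM in GILZ KO (2.90-fold, adjusted p = 0.00834, leave-one-out adjusted p = 0.0735). Its neighbour Dmwd, whose annotated end at chr7:19082776 is followed by the start of Dmpk at chr7:19083849 on the same strand, was at 20.4, 20.5 and 23.2 TPM in GILZ TG and 9.07, 10.5 and 11.2 TPM in GILZ KO (2.15-fold, adjusted p = 0.00466). Both were higher in every GILZ TG library, and WT was at 11.4, 16.6 and 11.6 TPM for Dmpk. Matk, a kinase that inhibits Src family kinases, was 2.55-fold higher in GILZ TG and Rab4a, a small GTPase of recycling endosomes, 2.78-fold, with means of 10.2 ± 0.8 and 12.2 ± 1.52 TPM in GILZ TG (SD, n = 3) and 4.21 ± 0.544 and 4.44 ± 2.12 TPM in GILZ KO. Their adjusted p was 0.00609 and 0.0299, and the leave-one-out adjusted p 0.0623 and 0.137. Egr2, a zinc finger transcription factor, was at 10.3, 15.3 and 7.65 TPM in GILZ TG and 4.48, 5.61 and 4.72 TPM in GILZ KO (2.66-fold, adjusted p = 0.0147, leave-one-out adjusted p = 0.0995). All 5 genes were without overlap, which was a condition for those named by their fold change.

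The immunoglobulin transcripts Ighg2b and Igkc were higher in GILZ TG, with the limit that such genes can share reads with their relatives. The read counts of Ighg2b, a heavy chain constant region, were 88, 421 and 40 in GILZ TG and 0 in each GILZ KO library, which is at least 170-fold higher at a floor of 3 counts over the group. Igkc, the kappa light chain, had 121, 377 and 38 counts in GILZ TG and 0, 4 and 4 in GILZ KO, with an adjusted p of 0.0197 and a leave-one-out adjusted p of 0.127. GILZ TG replicate 2, which also had the highest neutrophil markers, was highest for both, and they are markers of plasma cells. In contrast, the B cell receptor chain Cd79b was 1.52-fold higher in GILZ KO (adjusted p = 0.0417, leave-one-out adjusted p = 0.139).

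Transcription factors that GILZ is known to bind were examined with the NF-kB and AP-1 families. No gene of 28 tested was higher in GILZ KO and 4 were higher in GILZ TG (14.3%, against 4.31% of all genes in either direction). These were the AP-1 members Junb (1.302-fold) and Jund (1.42-fold), the small Maf protein Maff (1.56-fold) and Nfkbiz (1.25-fold), an atypical IkB protein. Junb was at 156, 165 and 148 TPM in GILZ TG and 110.2, 127 and 131 TPM in GILZ KO, and all GILZ TG libraries were above all GILZ KO libraries. Their adjusted p was between 0.0302 and 0.0499 and the leave-one-out adjusted p between 0.124 and 0.166. In all, 22 of the 28 genes had a negative log2 fold change, against 6269 of 12306 genes tested, and the median was -0.10. With transcript length taken out Jund and Maff did not pass, and with length and GC content taken out Junb also did not pass and 16 of the 28 genes were negative. Of 15 immediate early genes, Egr2 and the ERK phosphatase Dusp5 (1.38-fold, adjusted p = 0.0109, leave-one-out adjusted p = 0.0824) were higher in GILZ TG and none in GILZ KO. This was 13.3% of the list, against 4.31% of all genes.

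Ccl4 and Ccl3, chemokines that attract monocytes and T cells, were higher in GILZ TG. Ccl4 was at 262, 318 and 331 TPM in GILZ TG and 201, 212 and 199.8 TPM in GILZ KO (1.52-fold, log2 fold change -0.61 ± 0.09, adjusted p = 0.0145, leave-one-out adjusted p = 0.0967), and Ccl3 at 338, 353 and 382 TPM in GILZ TG and 293, 267 and 261 TPM in GILZ KO (1.34-fold, adjusted p = 0.0186, leave-one-out adjusted p = 0.109). For both, the groups did not overlap. They were 2 of 18 chemokines tested (11.1%, against 4.31% of all genes), with a median log2 fold change of -0.20. With GILZ TG as replicate 3 alone the median was -0.53. The median deviation of the 18 chemokines from the mean of the 6 libraries, in log2(TPM + 1), was -0.12, -0.15 and 0.30 in GILZ TG. In GILZ KO it was -0.04, -0.05 and -0.13, so only GILZ TG replicate 3 lay above all GILZ KO libraries. Of 14 inflammatory cytokines, only Spp1, which encodes osteopontin, passed, with 1.26-fold in GILZ TG (adjusted p = 0.0378, leave-one-out adjusted p = 0.158). This was 7.14% of the list, near the 4.31% of all genes.

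Among the relatives and inducers of GILZ, Tsc22d1, another TSC22 family member, was 1.402-fold higher in GILZ TG at 16.4, 19.2 and 17.1 TPM in GILZ TG and 11.6, 12.2 and 11.8 TPM in GILZ KO (adjusted p = 0.0255, leave-one-out adjusted p = 0.122). Of 21 genes tested for the glucocorticoid receptor and its targets, the metallothioneins Mt2 (1.64-fold, adjusted p = 0.00942, leave-one-out adjusted p = 0.0735) and Mt1 (1.22-fold, adjusted p = 0.0349, leave-one-out adjusted p = 0.158) were higher in GILZ TG. Tgm2, a transglutaminase, was 1.403-fold higher in GILZ KO (adjusted p = 0.0365, leave-one-out adjusted p = 0.164). Mt2 was at 93.5, 101 and 96.9 TPM in GILZ TG and 62.0, 66.2 and 53.5 TPM in GILZ KO, without overlap. The other 18 genes did not pass, so 14.3% of this list passed, against 4.31% of all genes.

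Of the genes tested for MHC class II, MHC class I and the lysosome, 1 of 9 (11.1%), 1 of 15 (6.67%) and 4 of 36 (11.1%) passed, against 4.31% of all genes. Cd74, the invariant chain of MHC class II, was at 102, 86.7 and 102 TPM in GILZ TG and 53.2, 67.8 and 52.1 TPM in GILZ KO (1.72-fold, log2 fold change -0.79 ± 0.11, adjusted p = 0.0138, leave-one-out adjusted p = 0.0928), with all GILZ TG libraries on top. It was the only one of 9 MHC class II genes that passed, while all 9 had a negative log2 fold change with a median of -0.18. Nlrc5, the transactivator of MHC class I genes, was 1.46-fold higher in GILZ KO (adjusted p = 0.00609, leave-one-out adjusted p = 0.0584), and the other 14 of 15 MHC class I genes tested did not pass. Of 36 lysosomal genes, the protease Ctsd (1.14-fold), the saposin precursor Psap (1.16-fold), the membrane protein Cd63 (1.21-fold) and the cathepsin inhibitor Cst3 (1.21-fold) were higher in GILZ TG. The adjusted p of these 4 was between 0.0258 and 0.0417 and the leave-one-out adjusted p between 0.129 and 0.168. With transcript length taken out only Psap passed, and with length and GC content taken out none of the 36 passed in edgeR. Fabp4, a fatty acid-binding protein, was 1.57-fold higher in GILZ TG at 35.7, 36.4 and 35.9 TPM in GILZ TG and 25.1, 23.7 and 21.5 TPM in GILZ KO (adjusted p = 0.0145, leave-one-out adjusted p = 0.0784), with hardly any spread within GILZ TG. Ncf1, the p47phox subunit of the NADPH oxidase, and Prdx6, a peroxiredoxin, were 1.25-fold and 1.19-fold higher in GILZ TG, with an adjusted p of 0.0334 and 0.0363 and a leave-one-out adjusted p of 0.154 and 0.15. Dcstamp, required for the fusion of osteoclast precursors, was 1.66-fold higher (adjusted p = 0.00781, leave-one-out adjusted p = 0.063), and the 9 osteoclast markers, to which it belongs, summed to 448, 405 and 240.0 TPM in GILZ TG and 179.6 to 281 TPM in GILZ KO. Most of this sum was Mmp9, a gelatinase that did not pass, and the other 8 markers summed to 95.2, 98.7 and 79.2 TPM in GILZ TG and 62.5 to 68.0 TPM in GILZ KO.

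**Figure D3:**
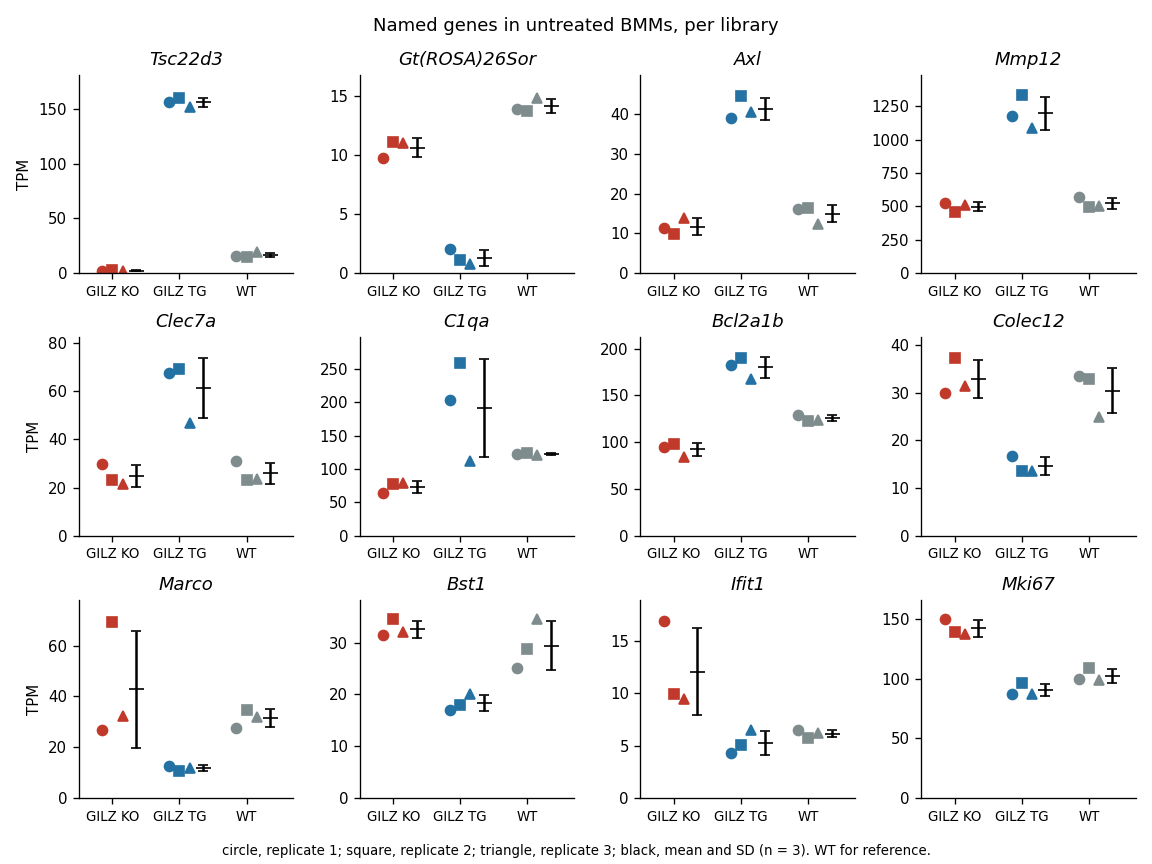
TPM of 12 genes in each untreated library on linear axes from 0, with the mean and SD of each group (n = 3) in black and WT for reference. GILZ TG is higher from Tsc22d3 to Bcl2a1b except for Gt(ROSA)26Sor, as for Axl with 39.02, 44.4 and 40.6 TPM against 11.4, 9.80 and 13.9 TPM, and in the other panels GILZ KO is higher, as for Bst1 with 31.4, 34.5 and 31.9 TPM against 17.0, 17.9 and 20.07 TPM.

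The class A scavenger receptors Colec12 and Marco were higher in GILZ KO. Colec12, a receptor with a collagen and a lectin domain, was at 30.0, 37.4 and 31.4 TPM in GILZ KO and 16.8, 13.6 and 13.5 TPM in GILZ TG (2.21-fold, log2 fold change 1.14 ± 0.11, adjusted p = 0.00466). Marco, which binds bacteria and particles, was at 26.6, 69.2 and 32.4 TPM in GILZ KO and 12.8, 10.6 and 11.9 TPM in GILZ TG (3.56-fold, log2 fold change 1.83 ± 0.33, adjusted p = 0.0255, leave-one-out adjusted p = 0.116). The groups did not overlap for Marco, but GILZ KO replicate 2 stood far above the other GILZ KO libraries. Cd5l, a secreted scavenger receptor protein of macrophages, was at 416, 386 and 406 TPM in GILZ KO and 282, 297 and 215 TPM in GILZ TG (1.49-fold, adjusted p = 0.0258, leave-one-out adjusted p = 0.136). These were 3 of 15 scavenger receptor genes tested (20%, against 4.31% of all genes). EdgeR called none higher in GILZ TG, whereas DESeq2 and the fit with length and GC content taken out each called 1 higher in GILZ TG.

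Of 5 genes tested for the SIRP family and CD47, 2 were higher in GILZ KO (40%, against 4.31% of all genes). Both are of the SIRP-beta type, which are activating receptors and not receptors of CD47. Sirpb1c was at 46.9, 52.6 and 44.1 TPM in GILZ KO and 17.8, 20.4 and 24.3 TPM in GILZ TG (2.18-fold, log2 fold change 1.12 ± 0.12, adjusted p = 0.00609, leave-one-out adjusted p = 0.0623) and Sirpb1a 1.89-fold higher (adjusted p = 0.0417, leave-one-out adjusted p = 0.155). The Sirpb1 genes are near-identical, so the level of each is uncertain. Fcgr3, a low-affinity Fc receptor, was 1.22-fold higher in GILZ KO (adjusted p = 0.0265, leave-one-out adjusted p = 0.132). Among surface proteins with small p-values, Bst1 (chr5:43818885-43843986), the ectoenzyme CD157, was at 31.4, 34.5 and 31.9 TPM in GILZ KO and 17.0, 17.9 and 20.07 TPM in GILZ TG (1.72-fold, log2 fold change 0.78 ± 0.07, adjusted p = 0.004), and Eng, the TGF-beta coreceptor endoglin, at 44.1, 44.9 and 45.8 TPM in GILZ KO and 31.7, 31.6 and 32.7 TPM in GILZ TG (1.41-fold, log2 fold change 0.50 ± 0.049, adjusted p = 0.00466). Both had a narrow spread within groups, and no overlap was a condition for naming them. Akap2, an anchoring protein of protein kinase A, was 1.87-fold higher in GILZ KO at 11.3, 11.1 and 12.6 TPM in GILZ KO and 6.05, 5.84 and 4.92 TPM in GILZ TG (adjusted p = 0.00466). Vwf, von Willebrand factor, was 1.67-fold higher in GILZ KO (adjusted p = 0.0186, leave-one-out adjusted p = 0.113), and the 11 endothelial markers, to which it belongs, summed to 37.1 to 43.4 TPM in GILZ KO and 23.8 to 30.0 TPM in GILZ TG. Vwf made up most of this sum, and the other 10 markers summed to 6.93 to 8.86 TPM in GILZ KO and 7.21 to 9.37 TPM in GILZ TG, with overlap.

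Of the other genes with the largest differences in this direction, Serpinb9b, a protease inhibitor, was at 38.1, 25.5 and 28.1 TPM in GILZ KO and 8.64, 7.44 and 14.4 TPM in GILZ TG (2.95-fold, adjusted p = 0.0161). Gprc5b, an orphan receptor coupled to G proteins, and Arfgef3, of the family of exchange factors for Arf GTPases, were 2.37-fold and 2.09-fold higher in GILZ KO (adjusted p = 0.0161 and 0.0104). In Serpinb9b and Gprc5b, GILZ TG replicate 3 was the highest of its group and thus the nearest to GILZ KO. Gm26377, annotated as a miRNA of 108 bases, was 2.75-fold higher (adjusted p = 0.0109), but a TPM of so short a transcript in a poly(A) library is uncertain. The leave-one-out adjusted p of these 4 genes was between 0.0783 and 0.0967.

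Interferon-stimulated genes, which encode antiviral effectors and sensors of foreign nucleic acid, lay mostly on the side of GILZ KO. Of 44 genes tested, 7 passed (15.9%, against 4.31% of all genes), each higher in GILZ KO. In all, 38 of the 44 had a positive log2 fold change, and the median was 0.33, against -0.004 over all genes. The largest differences were those of Ifit2 (2.30-fold) and Ifit1 (2.24-fold), proteins that bind viral RNA. Ifit1 was at 16.9, 9.95 and 9.42 TPM in GILZ KO and 4.31, 5.04 and 6.50 TPM in GILZ TG (log2 fold change 1.16 ± 0.24, adjusted p = 0.0377, leave-one-out adjusted p = 0.145) and Ifit2 at 14.9, 7.74 and 7.86 TPM in GILZ KO and 3.50, 4.25 and 5.18 TPM in GILZ TG (log2 fold change 1.20 ± 0.26, adjusted p = 0.0437, leave-one-out adjusted p = 0.151). The groups did not overlap for either gene, but GILZ KO replicate 1 was far above the other libraries, and WT was at 6.47, 5.78 and 6.20 TPM for Ifit1, near GILZ TG. The Ifit genes are related in sequence and can share reads. Herc6, a ligase for the ubiquitin-like ISG15, Parp14, a mono-ADP-ribosyltransferase, Eif2ak2, the double-stranded RNA-dependent kinase PKR, and Ifih1, the RNA sensor MDA5, were 1.34-fold, 1.32-fold, 1.28-fold and 1.28-fold higher, and Trim30a, named after its values were seen, 1.37-fold. The adjusted p of these 5 genes was between 0.014 and 0.0377, and their leave-one-out adjusted p between 0.0865 and 0.173. The median over the 44 genes of each library's deviation from the mean of the 6, in log2(TPM + 1), was 0.22, 0.16 and 0.07 in GILZ KO and -0.18, -0.25 and -0.007 in GILZ TG, so that GILZ TG replicate 3 lay near 0. With GILZ TG as replicate 3 alone the median log2 fold change of the list was 0.13, with 4 genes called higher in GILZ KO and 1 in GILZ TG, and with transcript length taken out it was 0.29 with 1 gene called. Ifi209, a DNA-sensing p200 family gene outside this list, was at 9.34, 7.24 and 7.10 TPM in GILZ KO and 3.41, 3.40 and 3.83 TPM in GILZ TG (2.18-fold, log2 fold change 1.12 ± 0.13, adjusted p = 0.0071) and is one of the 18 genes that passed in all fits with 1 library left out. 9930111J21Rik1 was 2.24-fold higher (adjusted p = 0.00548, leave-one-out adjusted p = 0.0528).

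Promoters of these genes were searched for the letters GAAANNGAAA on both strands, the core of the interferon-stimulated response element, to which the STAT and IRF factors of the interferon response bind. The windows were the 250 bases before and 50 bases after each RefSeq start (GRCm38.p6), and 9370 of the 12306 genes tested matched one. The motif was in 21 of the 34 matched interferon-stimulated genes (61.8%), in 368 of all matched genes tested (3.93%) and in 3.44% of all windows. Among the 7 genes that passed, 6 matched, and 4 of these held it. Over the matched genes higher in GILZ KO it was in 6.20%, and over those higher in GILZ TG in 5.59%. The AP-1 motif TGANTCA was in 8.39%, 10.5% and 6.18% of the matched genes higher in GILZ KO, higher in GILZ TG and tested, and in 7.81% of all windows. The core of the glucocorticoid response element, ACANNNTGT, was in 5.47%, 6.29%, 4.97% and 6.85% in the same order. A match is a run of letters and not a measured binding site. The 60-base stretches of Ifit1 (chr19:34640769-34640828, plus strand, matches starting 104 and 85 bases before the start) and Trim30a (chr7:104465195-104465254, minus strand, match 36 bases before the start) are shown because these are the genes among the 7 whose match lay before the start. Capitals mark the motif, which appears as its reverse complement on the strand shown.
Ifit1: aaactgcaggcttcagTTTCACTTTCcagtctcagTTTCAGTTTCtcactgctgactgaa
Trim30a: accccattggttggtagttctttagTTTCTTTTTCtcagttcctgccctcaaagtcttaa

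After LPS, most of these genes lay on the other side of 0. Of 45 interferon-stimulated genes tested in the LPS libraries, 38 had a negative log2 fold change, 3 were called higher in GILZ TG and 0 in GILZ KO, and the median was -0.13. The 3 were Mx1, Mx2 and Irf1. For Ifit1 the value was -0.29 after LPS (adjusted p = 0.114). The change with LPS was tested gene by gene as described for the interaction. Among the 7 genes called untreated it passed for Parp14 and Ifih1, and for Ifih1 not with DESeq2 size factors (adjusted p = 0.0513). It did not pass for Ifit1 (adjusted p = 0.0595), Ifit2 (0.0833), Eif2ak2 (0.164), Herc6 (0.213) or Trim30a (0.426).

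**Figure D4:**
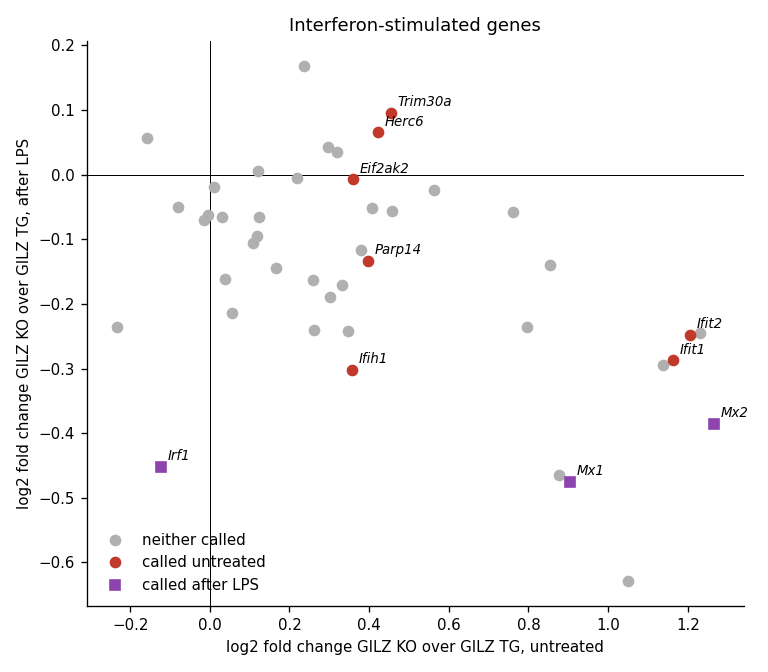
Log2 fold change of GILZ KO over GILZ TG in 44 interferon-stimulated genes, untreated on the horizontal and after LPS on the vertical axis, each point 1 gene. Most points lie to the right of 0 and under 0: 38 of the 44 are positive untreated and 37 are negative after LPS.

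Sensors of the inflammasome, the complex that activates caspase-1 and pyroptosis, differed in both directions. Of 19 genes tested, 6 passed (31.6%, against 4.31% of all genes). Higher in GILZ KO were 5, namely Naip6 (1.496-fold), Naip5 (1.42-fold), Naip2 (1.36-fold), Nlrc4 (1.401-fold) and Nlrp1b (1.39-fold). The Naip proteins recognize flagellin and parts of bacterial secretion systems and act through Nlrc4. Naip5 was at 15.7, 15.7 and 14.5 TPM in GILZ KO and 10.9, 9.53 and 11.2 TPM in GILZ TG and Nlrc4 at 7.98, 7.81 and 7.65 TPM in GILZ KO and 5.18, 5.43 and 5.75 TPM in GILZ TG, without overlap. Nlrp3, the sensor of cell damage, was the 1 gene higher in GILZ TG, at 89.7, 87.6 and 86.5 TPM in GILZ TG and 61.7, 72.0 and 65.7 TPM in GILZ KO (1.28-fold, log2 fold change -0.35 ± 0.057, adjusted p = 0.018, leave-one-out adjusted p = 0.0967). WT, at 66.1, 69.6 and 65.7 TPM, was at the level of GILZ KO. The adjusted p of the 5 genes was between 0.0129 and 0.0478 and their leave-one-out adjusted p between 0.0895 and 0.176. The Naip genes are close paralogs that can share reads, and with transcript length taken out Naip6 had an adjusted p of 0.071. Nlrp1b was named after its values were seen. Tlr5, the surface receptor for flagellin, was at 1.43, 1.74 and 1.67 TPM in GILZ KO and 0.74, 0.41 and 0.5 TPM in GILZ TG, which is low in both groups (2.88-fold, adjusted p = 0.0194, leave-one-out adjusted p = 0.112). Irak3, an inhibitor of Toll-like receptor signalling, was 1.304-fold higher in GILZ KO (adjusted p = 0.0271, leave-one-out adjusted p = 0.124), and the other 23 of 25 genes of this pathway did not pass. The 2 that passed were 8% of this list, against 4.31% of all genes.

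Of 40 cell cycle genes tested, 6 passed (15%, against 4.31% of all genes), all of the G2 and M phases and higher in GILZ KO. Mki67, the proliferation marker Ki-67, was at 150.2, 139 and 137 TPM in GILZ KO and 87.1, 96.5 and 87.5 TPM in GILZ TG (1.54-fold, log2 fold change 0.62 ± 0.061, adjusted p = 0.00466), with a wide gap between the groups. The kinetochore genes Cenpf (1.57-fold) and Cenpe (1.47-fold), the checkpoint kinase Bub1 (1.42-fold), the kinesin Kif20b (1.38-fold) and the spindle gene Hmmr (1.49-fold), the last named after its values were seen, passed with an adjusted p between 0.0286 and 0.0445 and a leave-one-out adjusted p between 0.136 and 0.189. In Cenpf, GILZ TG replicate 3 overlapped with GILZ KO. All 21 G2 and M phase genes tested had a positive log2 fold change with a median of 0.38, whereas the 19 S phase genes had a median of -0.10 and none passed in edgeR. With GILZ TG as replicate 3 alone, 14 of the 21 G2 and M phase genes were positive, the median was 0.13 and 3 passed. The median deviation of all 40 cell cycle genes from the mean of the 6 libraries, in log2(TPM + 1), was -0.34, -0.06 and -0.004 in GILZ TG and 0.11 to 0.12 in GILZ KO. With transcript length taken out, no cell cycle gene passed, and Mki67 had a log2 fold change of 0.37 and an adjusted p of 0.0509. In glycolysis, the lactate exporter Slc16a3 (1.36-fold), the aldolase Aldoc (1.35-fold) and the hexokinase Hk2 (1.19-fold) were higher in GILZ KO. These were 3 of 20 genes tested (15%, against 4.31% of all genes), with an adjusted p between 0.028 and 0.045 and a leave-one-out adjusted p between 0.136 and 0.157.

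Few of the nuclear genes for mitochondrial proteins passed. No value was found for the 13 genes encoded in mitochondrial DNA, so they were not tested. None of 50 genes of respiratory complex I, core and accessory subunits with assembly factors, passed in edgeR, and none of 40 genes of complexes II to V. Their median log2 fold changes were -0.11 and -0.09, and 42 and 34 of them were negative. With transcript length taken out, the medians were -0.04 and -0.02. Ndufb8, an abundant complex I subunit, was at 298, 326 and 314 TPM in GILZ KO and 324, 351 and 309 TPM in GILZ TG, and the groups overlapped (log2 fold change -0.13 ± 0.059, adjusted p = 0.221). Of 77 mitochondrial ribosomal proteins, Mrps6 (1.31-fold) and Mrpl48 (1.21-fold) were higher in GILZ TG, with an adjusted p of 0.0161 and 0.0312 and a leave-one-out adjusted p of 0.0945 and 0.138. This was 2.6% of the list, under the 4.31% of all genes. None of 85 cytosolic ribosomal proteins passed in edgeR, and their median was -0.003, or 0.07 with length taken out. The 21 genes tested for cholesterol synthesis had a positive log2 fold change throughout (median 0.20) but none passed, and with GILZ TG as replicate 3 alone the median was -0.08. An unadjusted p under 0.05 was found for 18 genes of complex I and 7 of complexes II to V, against 3127 of all 12306 genes tested. It was found for 24 mitochondrial ribosomal, 5 cytosolic ribosomal and 7 cholesterol synthesis genes. DESeq2 called 2, 1, 3, 1 and 5 in the same order, and 1224 genes in all.

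The differences moved with the length of the transcripts. The median length was 4610 bases for genes higher in GILZ KO and 1804 bases for genes higher in GILZ TG, against 2394 bases over all genes. With genes in 5 classes of equal size by length, from the shortest to the longest class, the median log2 fold change went from -0.09 to 0.12. In the shortest class 0.569% of genes were called higher in GILZ KO and 2.40% higher in GILZ TG, and in the longest class 8.41% and 0.569%. The trend differed between libraries of one group: the log2 difference of long against short transcripts (5096 against 942 bases) was 0.14, 0.08 and 0.08 in GILZ KO and 0.005, -0.11 and -0.20 in GILZ TG. In WT, on the scale of the 9 untreated libraries, it was 0.13, 0.002 and -0.22, so the 3 WT libraries spread about as widely as the libraries of both groups together. With each library's trend taken out through an offset, 293 genes were called, 156 higher in GILZ KO and 137 higher in GILZ TG, and 244 of them were among the 531. The share of calls that were higher in GILZ KO was 65.7% without and 53.2% with the offset. No call shared by both fits changed direction, but both fits use the same 6 libraries. Of 96 genes that passed and are described for untreated cells, 35 did not pass with the length offset, 31 with the offset for length and GC content and 19 with GILZ TG as replicate 3 alone. Itga4 and Mki67 were the only ones of the 18 genes above that did not pass with the length offset. The part of library preparation in this trend was not tested.

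**Figure D5:**
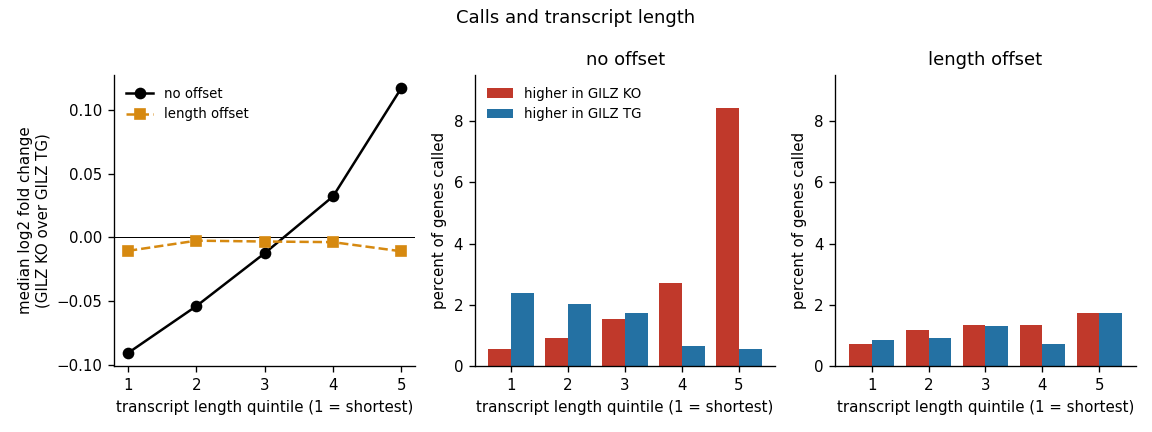
Genes in 5 classes of equal size by transcript length (1 = shortest): median log2 fold change of GILZ KO over GILZ TG, and percent of genes called higher in GILZ KO or GILZ TG, without and with an offset for length. Without the offset 8.41% of the longest class were called higher in GILZ KO, and with it 1.75% in either direction.

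Read against WT, the genes higher in GILZ TG and those higher in GILZ KO were placed differently. For the 182 genes higher in GILZ TG, the mean of WT lay between the groups in 154, and it was nearer to GILZ KO in 149 and nearer to GILZ TG in 33. Of the 349 genes higher in GILZ KO, 320 had WT in between, with 148 nearer to GILZ KO and 201 nearer to GILZ TG. For these 349 genes the 3 WT libraries did not lie together: on a scale from 0 (GILZ TG) to 1 (GILZ KO) the median position was 0.68, 0.53 and 0.12 in replicates 1, 2 and 3, in the order of their length trends. For the 182 genes higher in GILZ TG the positions were 0.66, 0.72 and 0.86, so replicate 3 was there the nearest to GILZ KO. The part of transcript length in these positions was not tested. The genes were chosen for the distance between GILZ KO and GILZ TG, which by itself makes a WT mean in between likely. The counts were not set against those of other genes, and these are descriptions without a test.

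After LPS, 268 of 11887 genes (2.25%) differed between GILZ KO and GILZ TG, 120 higher in GILZ KO and 148 higher in GILZ TG. Of the 531 genes called without treatment, 520 were tested after LPS, 76 passed in the same direction and 1 in the opposite direction, and 445 had the same sign. The median log2 fold change of the genes higher in GILZ KO was 0.39 without treatment and 0.17 after LPS, and that of the genes higher in GILZ TG -0.47 and -0.37. The former values were chosen for their size, the latter were not. Tsc22d3 (-4.76), Axl (-1.58), Mmp12 (-1.12), Clec7a (-0.76), Itgax (-1.54) and C1qa (-1.46) were still higher in GILZ TG after LPS, with an adjusted p between 3.26e-08 and 0.0417. Marco (2.32), Sirpb1c (1.01), Bst1 (0.86), Colec12 (0.85), Akap2 (0.69) and Eng (0.56) were still higher in GILZ KO, with an adjusted p between 0.00775 and 0.0201. The log2 fold change of Mki67 was -0.10 and that of Itga4 0.01 after LPS, and neither passed.

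The change of the difference with LPS was tested as the interaction of genotype and treatment. It passed for 16 of 12853 genes (0.124%), and 9 of these were called without treatment. In 9 genes the log2 fold change of GILZ KO over GILZ TG fell with LPS, among them Ifi209 (from 1.12 to 0.03), Ifih1 (from 0.36 to -0.30) and Parp14 (from 0.40 to -0.13), and Nlrc5 (from 0.55 to -0.02). Bcl2a1b went from -0.99 to -0.18, so as a ratio its excess in GILZ TG was larger in untreated cells. Its mean in GILZ TG and GILZ KO was 180 and 92.4 TPM untreated, and 1208 and 1072 TPM after LPS. The count of genes that passed depended on which replicate was left out, in fits that also have less power. Without both libraries of 1 replicate number it was 0 (GILZ KO 1, GILZ KO 3 and GILZ TG 2), 5 (GILZ KO 2 and GILZ TG 1) or 243 (GILZ TG 3).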

How the data were processed

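RNA-seq was done on poly(A) RNA with a directional kit and single-end reads. The authors mapped reads to the mouse genome (GRCm38) with the grape-nf pipeline and deposited, per library, an expected count and a TPM per gene. The strand setting of the counting and the annotation release are not given in the sources used here. Their notes also name FastQC 0.11.2 and DESeq2 1.40.2, and deposited tables of their own comparisons (log2 fold changes and p-values) were not used. Expected counts were rounded, genes with low counts were removed with edgeR's filterByExpr, and GILZ KO and GILZ TG were compared with edgeR's quasi-likelihood test (edgeR 4.0.16, R 4.3.3, TMM scaling) with Benjamini-Hochberg adjustment over all genes and a threshold of 0.05. TPM was used for levels only, except in limma 3.58.1 on log2(TPM + 1) and log2(TPM + 0.1). The 6 libraries held 20501046 to 28184535 reads on genes, and the common biological coefficient of variation was 0.0952.

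Genes were named if they belonged to the targeted loci or lay within 1 Mb of them and passed, if they were among the 12 largest fold changes or 5 smallest p-values per direction (passed, no overlap, at least 5 TPM in the higher group), or if they were among the 5 smallest p-values of a list's called members or the 2 most abundant members of a list without a call. Other genes are marked as named after their values were seen. The members and lists were chosen with earlier results of these data known. Alternatives were DESeq2 1.42.0 and its size factors, scaling by totals, other filters, protein-coding genes alone, fits with 9 or 18 libraries, each library left out and a replicate block. Offsets for transcript length and GC content, and GILZ TG as replicate 3 alone, were added after the data were seen. The study describes the libraries of a group as independent preparations. The analysis steps were tested on simulated data.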

Additional observations from a re-analysis of the deposited data

Results flagged for a closer look

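A test of the change with LPS picked 16 genes whose fold change of GILZ KO over GILZ TG was not the same in untreated and LPS-treated cells. The values are the interaction on the log2 scale, and in the same brackets the log2 fold change of GILZ KO over GILZ TG without treatment and after LPS. In 9 genes the value fell: Bach1 (-0.68, from 0.30 to -0.36), 9930111J21Rik1 (-1.14, from 1.16 to 0.04), Ifi209 (-1.12, from 1.12 to 0.03), Syne3 (-1.04, from 0.50 to -0.52), Rere (-0.86, from 0.23 to -0.61), Nlrc5 (-0.58, from 0.55 to -0.02), Parp14 (-0.55, from 0.40 to -0.13), Ifih1 (-0.68, from 0.36 to -0.30) and Cdc42ep3 (-1.11, from 0.05 to -1.04). In 7 genes it rose: Bcl2a1b (0.80, from -0.99 to -0.18), Gdf15 (1.56, from -0.54 to 1.04), Fosl2 (1.084, from -0.09 to 1.01), Gadd45a (1.07, from -0.60 to 0.49), Jmjd6 (0.72, from -0.05 to 0.68), Plk3 (1.05, from -0.22 to 0.84) and Mapk7 (0.58, from -0.09 to 0.51). The adjusted p of the interaction in edgeR was 0.0336 in 14 of these genes, 0.0431 in Cdc42ep3 and 0.0437 in Mapk7, and 1368 of 12853 genes had an unadjusted p under 0.05. With DESeq2 size factors, Cdc42ep3 and Ifih1 did not pass (adjusted p = 0.0513 for each in edgeR).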

How the results depend on the processing

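With 531 genes called (349 higher in GILZ KO, 182 higher in GILZ TG), the count was 1203 (702 and 501) without a filter on low counts, 1224 (727 and 497) in DESeq2, 190 (130 and 60) with limma on log2(TPM + 1) and 171 (115 and 56) on log2(TPM + 0.1). It was 3127 (1667 and 1460) at an unadjusted p under 0.05 and 150 (82 and 68) with a fold over 1.5. With 1 library left out it ranged from 21 to 2171 (12 to 1186 and 9 to 985). Among alternatives added after the data were seen, the length offset gave 293 (156 and 137), the offset for length and GC content 363 (197 and 166), and GILZ TG as replicate 3 alone 1321 (859 and 462). DESeq2 size factors, scaling by totals, a mean of at least 10 TPM, protein-coding genes alone and fits with 9 or 18 libraries stayed within 1.5 times. For the change with LPS (16 genes), DESeq2 called 210 genes, no filter 111, and leaving out 1 replicate gave 0 to 243.

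With the replicate number as a block, 138 genes were called (90 and 48), and 128 for the change with LPS. Same-numbered GILZ KO and GILZ TG libraries did not deviate together (correlations of -0.027, -0.061 and -0.178), and untreated and LPS libraries of one number correlated with -0.011 to 0.135 in GILZ KO and 0.249 to 0.579 in GILZ TG, so not every pair was over 0.1 and the numbers were not taken to pair samples. Whether untreated and LPS libraries of one number share a preparation is not stated; all 3 GILZ TG pairs were over 0.1, so for the change with LPS both counts are given.

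Named genes that passed kept their direction in each alternative that tested them. The alternatives share libraries with the fit in which these genes were called, so this was largely fixed in advance. Of the described genes that did not pass (Lyz2, Ndufb8, Thumpd3 and Setd5), Lyz2 turned positive with limma (0.12 and 0.13), the replicate block (0.094), length (0.066) or length and GC offsets (0.046), while it lay between -0.32 and 0.50 with 1 library left out; the cause was not tested.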
